A study of Mus musculus with 16 samples.

Results

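The replication-type histone cluster genes were followed in whole lungs of newborn mice after ozone. Every probe that is not a control and whose gene name on the array begins with Hist1h, Hist2h, Hist3h or Hist4h was taken, which gave 46 probes of 36 genes out of 41174 probes of 27827 gene names. Of these, 42 probes of 33 genes were bright enough to be tested. The lungs came from BALB/c mice, an inbred strain, aged 3 days, kept for 3 h in ozone (1000 ppb) or in filtered air. Lung RNA dates from 6 h or from 24 h after that exposure, and each time had its own air group of littermates, with 4 lungs and 1 array per lung in each of the 4 groups. All groups were of the same strain, and the pups were fostered across dams while they were exposed. Of the 42 tested probes, 37 were well above background on all 16 arrays and 5 on fewer.

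Replication-type histones are the H1, H2A, H2B, H3 and H4 proteins that package newly copied DNA, and their genes lie in tight clusters with many near-identical copies. Their mRNAs rise in S phase and are degraded when DNA synthesis stops. Unlike other mRNAs they usually end in a conserved stem-loop, bound by the protein Slbp, in place of a poly(A) tail. The RNA of these arrays was labelled from an oligo(dT) primer per the labels, so the values show histone transcripts as far as such a primer copies them, and total histone mRNA was not measured.

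Many of these probes cannot tell gene copies apart, and the sequences below, read from the array's probes, show how close they are. Probes were grouped where at least 34 of 40 aligned bases were identical, which put 15 of the 42 tested probes into 5 families. In the first set, capitals mark the bases that differ between the probes named Hist1h2bk and Hist1h2bm, which encode H2B: 58 of 60 are the same.
Hist1h2bk: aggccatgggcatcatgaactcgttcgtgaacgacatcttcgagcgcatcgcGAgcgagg
Hist1h2bm: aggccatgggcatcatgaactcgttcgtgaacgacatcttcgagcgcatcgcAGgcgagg
The next pair is from H2A. The probes of Hist1h2aa, a gene known for its expression in the testis, and of Hist1h2af share an unbroken run of 44 bases and differ at the 13 bases in capitals.
Hist1h2aa: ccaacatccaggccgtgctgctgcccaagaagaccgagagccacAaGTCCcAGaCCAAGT
Hist1h2af: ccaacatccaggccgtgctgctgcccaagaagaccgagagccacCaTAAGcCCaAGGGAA
In another pair the first bases of Hist1h2ak and of Hist2h2aa1 agree at 47 of 58 aligned bases, and capitals again mark the differences.
Hist1h2ak: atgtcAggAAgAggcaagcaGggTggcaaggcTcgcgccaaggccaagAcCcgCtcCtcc
Hist2h2aa1: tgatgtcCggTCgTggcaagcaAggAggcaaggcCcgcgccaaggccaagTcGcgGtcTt
For H4 the probes of Hist1h4d and Hist1h4f are the same stretch shifted by a few bases, with 50 of 50 aligned bases identical and no difference to mark.
Hist1h4d: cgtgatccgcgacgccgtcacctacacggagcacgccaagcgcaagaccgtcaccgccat
Hist1h4f: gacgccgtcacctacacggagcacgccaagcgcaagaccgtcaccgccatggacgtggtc

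Other probes had no near copy among the histone probes by this measure. It compared probes with each other and not with transcripts, so it cannot show that a probe binds a single gene. Shown here are 2 such probes of H1, the linker histone, and 3 that hold letters of the stem-loop. The probes of Hist3h2a at base 200 and Hist2h2bb at base 1348, both called at 6 h, also had no near copy and are not shown. The 2 H1 sequences are shown whole, with no base marked.
Hist1h1e: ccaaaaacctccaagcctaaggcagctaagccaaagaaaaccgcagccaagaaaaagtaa
Hist1h1b: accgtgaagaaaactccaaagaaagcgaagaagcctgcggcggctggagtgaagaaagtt
The Hist1h1e probe lies at chr13:23713707-23713766 and the Hist1h1b probe at chr13:21871923-21871982, both on the minus strand (mm9). The end of a replication-type histone mRNA has the letters CTTTTCA as the core of the stem-loop. These letters, read on the transcript's strand, were in 3 of the 46 probes (6.52%) and in 0.862% of all probes. They are in capitals in the 30 bases shown of each.
Hist1h2ab: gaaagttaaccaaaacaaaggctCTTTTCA
Hist1h2ae: CTTTTCAgagccattcacttaattcagtaa
Hist1h3a: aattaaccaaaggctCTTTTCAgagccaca
The Hist1h2ab probe (chr13:23843392-23843451, plus strand), the Hist1h2ae probe (chr13:23662489-23662548, minus strand) and the Hist1h3a probe (chr13:23853756-23853815, minus strand) all lie in the large cluster on chromosome 13. The Hist1h2ae probe begins with the stem-loop core and runs on past it, so most of its bases lie beyond the core. Which form of the transcript this probe measures was not tested.

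Across the 16 arrays, 65.0% to 83.9% of spots were well above background, and the highest share was that of ozone replicate 3 of 6 h. Of the 4 lungs in each group, 1 was from a male, judged by Xist and Y-linked signals since the labels give no sex, in either air group, against 2 in the ozone group of 6 h and 3 in that of 24 h. Replicates 1 and 2 of both groups of a time shared a slide, and replicates 3 and 4 the other, so slides can be compared within a time but not across times. The labelled tissue was borne out by its markers: 14 of 15 probes of 12 lung genes, such as Sftpc and Scgb1a1, were well above background on all 16 arrays. Values below are log2 of the signal relative to each array's 75th percentile, so 0 stands for that percentile. A level is compared between groups for 1 probe and never between probes.

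At 6 h the histone probes were mostly lower in the ozone lungs, by small amounts. Of the 42 tested probes, 36 had a mean below that of air. The median difference over the 42 was -0.24 on the log2 scale, where the median over all 32340 tested probes was 0.08. Without ozone replicate 3 of 6 h these medians were -0.23 and -0.003, and with quantile normalization -0.21 and -0.02. Limma, with Benjamini-Hochberg adjustment over all probes, called 3 histone probes lower and 0 higher at an adjusted p under 0.05, which is 7.14% of them against 2.63% of all probes called lower. At an unadjusted p under 0.05, 12 of 42 were lower (28.6%, all probes 9.94%). Only 2 of 42 were higher, against 3184 of all 32340 probes. In 14 of 42 (33.3%) all 4 ozone values lay below all 4 air values, which was so for 4.52% of all probes. The 3 calls at 6 h became 0 with sex as a covariate, with the 6 h arrays alone, and without ozone replicate 1 or 2 or air replicate 3 or 4 of 6 h, and 7 with normexp background correction or array weights. Members share sequence and lungs, so these counts are not counts of independent events. Whole lung is a mixture of cell types, in which fewer cells of a type and less RNA per cell cannot be told apart.

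At 24 h the histone probes were again mostly lower in the ozone lungs. Of the 42 probes, 34 were below air, with a median of -0.37, where the median over all probes was 0.00. Limma called 3 lower and 0 higher (7.14%, against 1.12% of all probes called lower). At an unadjusted p under 0.05, 27 of 42 were lower (64.3%, all probes 5.09%). Again 2 of 42 were higher, against 2150 of all 32340 probes. Only 6 of 42 (14.3%, all probes 5.3%) had all 4 ozone values below all 4 air values. The median difference was -0.06 in the first slide and -0.62 in the other. At 6 h the same medians were -0.18 and -0.30. The 3 calls at 24 h became 11 with quantile normalization, 10 with the authors' log2 table and 9 without ozone replicate 2 of 24 h. They became 2 with sex as a covariate, with no filter on dim probes or with the 24 h arrays alone, and 0 in the first slide alone. With sex as a covariate the median was -0.27. The difference between the 24 h and the 6 h effect was not called for any of the 42 probes by limma and was called for 0.0649% of all probes. At an unadjusted p under 0.05 it differed for 5 of 42 (11.9%), a share near that of all probes (12%). The median of this difference was -0.08 over the 42 probes, beside -0.06 over all probes. With normexp background correction these medians were 0.01 and -0.33.

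**Figure D1:**
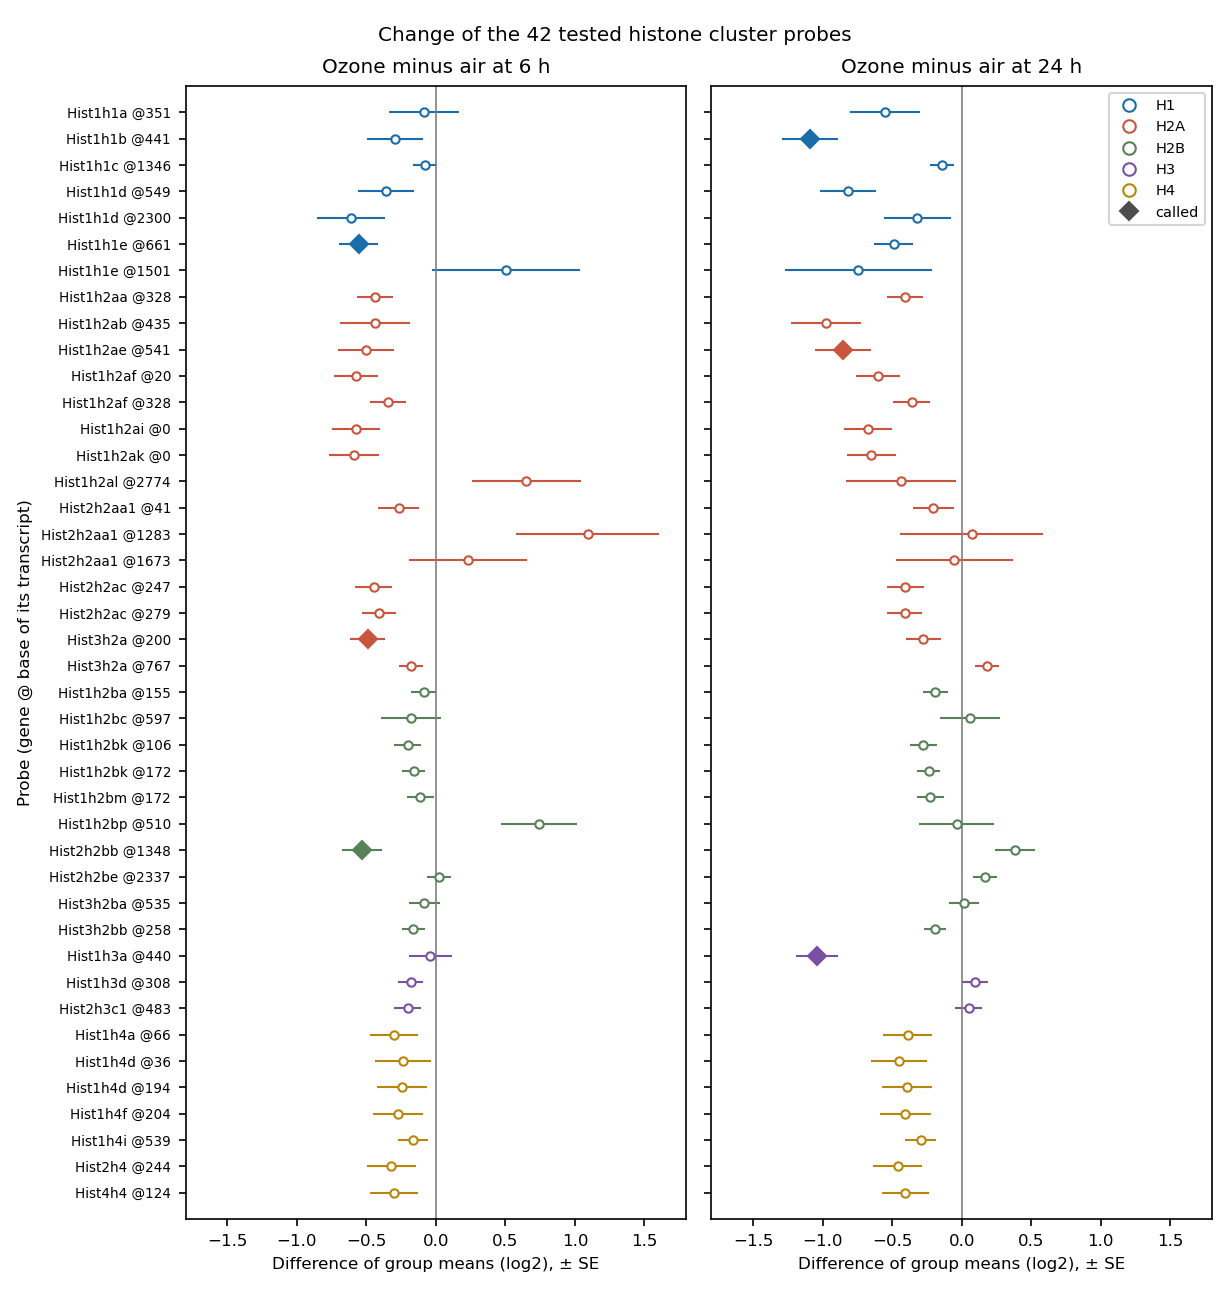
Difference between the ozone and air means (log2, horizontal axis, bars ± SE, n = 4 lungs per group) of each of the 42 tested probes at 6 h and 24 h, grouped by histone type; filled diamonds mark limma adjusted p under 0.05. Points lie mostly to the left of 0 at both times, with 3 called probes at 6 h and 3 others at 24 h, and the 7 H4 probes keep close together.

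Linker histones, the H1 proteins that bind the DNA between nucleosomes, had the lowest median at 24 h of the 5 types. Over 7 tested probes of 5 genes the median was -0.30 at 6 h and -0.55 at 24 h, with 1 probe called lower at each time. Hist1h1e, probed at base 661 of its transcript, gave 2.07, 2.18, 2.54 and 2.39 in the air lungs of 6 h and 1.61, 1.79, 1.796 and 1.77 in the ozone lungs. Every ozone lung lay below every air lung. It fell by 0.56 ± 0.14 (log2, SE, n = 4 per group, limma adjusted p = 0.0373). At 24 h its means were 1.88 in air and 1.39 in ozone, a difference of -0.49 ± 0.14 that was not called (adjusted p = 0.105), and the groups overlapped. The call at 6 h was lost without any 1 of the 4 ozone lungs of 6 h and without air replicate 3 or 4 of 6 h (adjusted p between 0.0548 and 0.136), and in the means over both Hist1h1e probes the value was -0.03. The other probe, at base 1501, was above background on 9 of 16 arrays.

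Hist1h1b gave 0.53, 0.77, -0.17 and 0.49 in the air lungs of 24 h and -0.87, -0.06, -0.89 and -0.92 in the ozone lungs. Ozone replicate 2 lay just above air replicate 3, and the other lungs of the 2 groups stood apart. It fell by 1.09 ± 0.20 (adjusted p = 0.00711), the largest fitted decrease among the 42 probes at 24 h. Its difference at 6 h was -0.30 ± 0.20 (adjusted p = 0.425), and the difference between times, -0.79 ± 0.28, was not called (adjusted p = 0.274). Within the slides the 24 h value was -1.12 and -1.06.

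Hist1h1d at base 549 stood just outside the threshold at 24 h. Its air lungs gave -2.18, -2.43, -2.77 and -2.14 and its ozone lungs -3.10, -2.78, -3.37 and -3.54, and the groups did not overlap, though air replicate 3 and ozone replicate 2 nearly met. The difference was -0.82 ± 0.20 (adjusted p = 0.0503). The gene's other probe, at base 2300, gave -0.32 ± 0.24 (adjusted p = 0.708), and at 6 h it was above background on 1 of 4 ozone arrays. Hist1h1a had -0.55 ± 0.25 at 24 h (adjusted p = 0.39). Hist1h1c, an H1 gene known to be expressed outside S phase as well, differed by -0.08 ± 0.09 at 6 h and -0.14 ± 0.09 at 24 h (adjusted p = 0.633 and 0.596). Hist1h1t, the H1 of the testis, was not tested because of an uneven spot.

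The 3 probes with the stem-loop core, of 3 different genes, had the largest 24 h differences outside H1. Hist1h3a, an H3 gene, gave -2.35, -2.84, -2.87 and -2.78 in the air lungs of 24 h and -3.73, -3.47, -3.83 and -3.98 in the ozone lungs. The lowest air lung was above the highest ozone lung. It fell by 1.04 ± 0.15 (adjusted p = 0.00137), with -1.004 in the first slide and -1.078 in the other. At 6 h the means were -2.21 in air and -2.25 in ozone, a difference of -0.04 ± 0.15 (adjusted p = 0.897). The difference between times, -1.0 ± 0.22, had the smallest adjusted p of the 42 probes for that contrast, 0.0924, and was not called. Leaving out any 1 of the 16 arrays kept the 24 h calls of Hist1h3a and Hist1h1b.

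Hist1h2ae gave -4.28, -4.51, -4.13 and -4.15 in the air lungs of 24 h and -4.94, -4.85, -5.62 and -5.09 in the ozone lungs. The groups did not overlap, and this dim probe was well above background on all 16 arrays. It fell by 0.86 ± 0.20 (adjusted p = 0.0391), and at 6 h the difference was -0.50 ± 0.20 (adjusted p = 0.174). At 24 h the first slide alone gave -0.50 and the other -1.22, and the call held in 7 of 16 fits without 1 array. Among 15 other settings it held in 6. Quantile normalization (adjusted p = 0.0641), the authors' log2 table (0.071), normexp background correction (0.187) and sex as a covariate (0.138) each lost it. The call was lost without any 1 lung of 24 h other than ozone replicate 2, and without air replicate 2 or ozone replicate 4 of 6 h (adjusted p from 0.052 to 0.13). Hist1h2ab gave -0.87, -0.82, -1.51 and -0.50 in air and -1.69, -1.09, -2.41 and -2.41 in ozone at 24 h, so that air replicate 3 lay among the ozone lungs. Its difference of -0.98 ± 0.25 was not called (adjusted p = 0.0629).

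**Figure D2:**
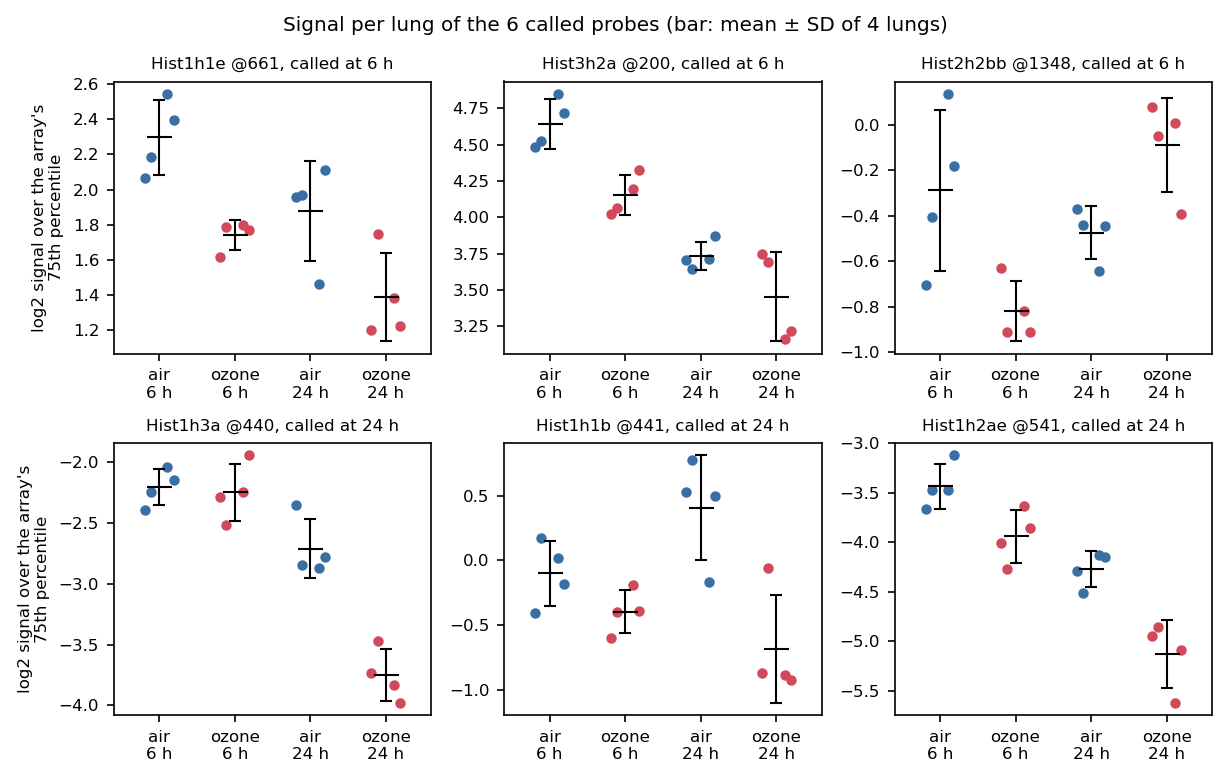
Signal of each lung (log2 over the array's 75th percentile; points, replicates 1 to 4 from left to right) in air (blue) and ozone (red) at 6 h and 24 h for the 6 probes called at 1 of the times; lines show mean ± SD of 4 lungs. Hist1h1e and Hist3h2a separate the groups at 6 h, Hist1h3a and Hist1h2ae separate them at 24 h, and 1 ozone lung of Hist1h1b, replicate 2, lies at -0.06 near the air lung at -0.17.

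H2A, the core histone with the most probes here, had a median of -0.44 at 6 h and -0.41 at 24 h over 15 probes of 10 genes. In 10 of the 15 all ozone lungs lay below all air lungs at 6 h (66.7%, all probes 4.52%), and in 4 at 24 h (26.7%, all probes 5.3%). Near-copy families of 4, 2 and 2 probes are among the 15, so these are not counts of independent events. Hist3h2a at base 200 was the H2A probe called at 6 h, with 4.49, 4.52, 4.85 and 4.72 in air and 4.03, 4.06, 4.20 and 4.33 in ozone. The groups did not overlap, and it fell by 0.49 ± 0.13 (adjusted p = 0.0393). At 24 h its first-slide ozone lungs, 3.75 and 3.69, were level with air, whose values ran from 3.64 to 3.87, while the other ozone lungs gave 3.16 and 3.22. The difference there was -0.28 ± 0.13 (adjusted p = 0.385). The gene's second probe, at base 767, did not follow: it gave -0.18 ± 0.09 at 6 h and 0.18 ± 0.09 at 24 h, the second largest change against the members' direction at 24 h (adjusted p = 0.268 and 0.422). The 6 h call of Hist3h2a at base 200 held in 8 of 16 fits without 1 array and was lost without ozone replicate 1, 2 or 3 or air replicate 3 or 4 of 6 h (adjusted p from 0.0772 to 0.139), and without air replicate 1, 2 or 3 of 24 h (0.0501 to 0.0516).

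The near-copy H2A probes gave close values. Hist1h2ak, Hist1h2af at base 20 and Hist1h2ai differed by -0.59, -0.57 and -0.58 at 6 h. Their 24 h differences were -0.65, -0.60 and -0.67, with none called (adjusted p between 0.0534 and 0.0865). For Hist1h2ak the air lungs of 6 h gave 3.86, 3.88, 4.20 and 4.05 and the ozone lungs 3.73, 3.26, 3.33 and 3.32. At 24 h they gave 3.42, 3.26, 3.52 and 3.61 in air and 3.26, 3.199, 2.42 and 2.33 in ozone. Ozone replicates 3 and 4 of 24 h were the low lungs, and replicates 1 and 2 lay at or just below the lowest air lung. The fourth of this family, Hist2h2aa1 at base 41, gave -0.27 ± 0.15 and -0.20 ± 0.15 (adjusted p = 0.328 and 0.694).

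Hist1h2aa was a bright probe and carried the sequence shared with Hist1h2af. Its air lungs of 6 h gave 7.67, 7.65, 7.94 and 7.82 and its ozone lungs 7.45, 7.19, 7.28 and 7.40, which did not overlap. The difference was -0.44 ± 0.13 (adjusted p = 0.0748), and at 24 h -0.41 ± 0.13 (adjusted p = 0.162). Hist1h2af at base 328 gave -0.35 and -0.36. A probe of H2afj, an H2A gene outside the clusters, had 38 of 40 bases identical to each of these and differed by -0.39 ± 0.13 and -0.32 ± 0.13 (adjusted p = 0.101 and 0.299), whereas the H2afj probe that is not among these near copies rose by 0.36 ± 0.10 at 6 h (adjusted p = 0.0466), a call that held in 2 of 16 fits without 1 array and in 2 of 14 other settings. Which copy these bright probes measure was not tested.

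The 2 probes named Hist2h2ac overlap each other in sequence (52 of 56 aligned bases identical), and the array design places them apart. The first is at chr3:96049751-96049810 on the plus strand, next to the Hist2h2aa1 probe at chr3:96049502-96049561, and the second at chr3:96024468-96024524 on the minus strand. Their differences were -0.45 and -0.41 at 6 h and -0.41 and -0.41 at 24 h (adjusted p between 0.069 and 0.169). All ozone lungs were below all air lungs for both at 6 h. Current RefSeq names give a pseudogene, marked by the letters ps, for Hist1h2al and for Hist3h2bb.

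For H2B the differences were small. Over 10 probes of 9 genes the median was -0.14 at 6 h and -0.11 at 24 h. The H2B family of near copies, named Hist1h2ba, Hist1h2bk at base 172, Hist1h2bm and Hist3h2bb, differed by -0.09 to -0.16 at 6 h and by -0.19 to -0.24 at 24 h, none called. Hist1h2bm gave 1.04, 1.12, 1.14 and 1.17 in air and 1.06, 1.03, 0.92 and 1.02 in ozone at 6 h, a small and overlapping difference. Hist1h2bc, a bright probe, gave -0.18 ± 0.21 at 6 h and 0.06 ± 0.21 at 24 h (adjusted p = 0.662 and 0.969). Its air replicate 2 of 24 h, at -0.14, lay far below the other 3 at 1.04 to 1.26, and without that lung the 24 h value was -0.27. Hist2h2be differed by 0.02 ± 0.08 and 0.17 ± 0.08, and Hist3h2ba by -0.08 ± 0.11 and 0.02 ± 0.11 (adjusted p between 0.465 and 0.984).

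Hist2h2bb, probed at base 1348, was the H2B probe called at 6 h and it had the opposite sign at 24 h. The air lungs of 6 h gave -0.70, -0.40, 0.14 and -0.18 and the ozone lungs -0.63, -0.91, -0.82 and -0.91. Air replicate 1 lay among the ozone lungs. It fell by 0.53 ± 0.14 (adjusted p = 0.0493), with -0.22 for the first slide and -0.84 for the other, and the call held in 3 of 16 fits without 1 array (adjusted p up to 0.166 in the others). At 24 h the air lungs gave -0.37, -0.44, -0.64 and -0.44 and the ozone lungs 0.08, -0.05, 0.01 and -0.39, a difference of 0.39 ± 0.14, the largest against the members' direction at that time (adjusted p = 0.254). The difference between times was 0.92 ± 0.20 and was not called (adjusted p = 0.103).

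For H3 there were 3 tested probes, and they did not move together. Beside the fall of Hist1h3a at 24 h, Hist2h3c1, a bright probe, gave 6.17, 5.95, 5.74 and 6.12 in air and 5.87, 5.87, 5.74 and 5.69 in ozone at 6 h. These groups overlapped, with a difference of -0.20 ± 0.10 (adjusted p = 0.259), and at 24 h it was 0.05 ± 0.10 (adjusted p = 0.932). Hist1h3d gave -0.18 ± 0.09 and 0.10 ± 0.09 (adjusted p = 0.287 and 0.803).

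H4, the most conserved of the core histones, gave the most even picture. All 7 tested probes of 6 genes were below air at both times, between -0.17 and -0.32 at 6 h and between -0.30 and -0.46 at 24 h, and none was called (smallest adjusted p = 0.328 and 0.254). All 7 were lower at 24 h with an unadjusted limma p under 0.05, against 5.09% of all probes. Hist1h4f gave 3.87, 4.26, 4.56 and 4.20 in air and 3.89, 4.03, 3.89 and 3.99 in ozone at 6 h. At 24 h it gave 3.48, 3.598, 3.09 and 3.94 in air and 3.24, 3.599, 2.87 and 2.78 in ozone. The groups overlapped at both times, and the differences were -0.27 ± 0.18 and -0.41 ± 0.18 (adjusted p = 0.418 and 0.378). Hist4h4 at base 124, on chromosome 6 and away from the large clusters, gave -0.30 ± 0.17 and -0.41 ± 0.17, close to the probes named for H4 genes of chromosome 13. Of the 7 H4 probes, 3 are near copies: Hist1h4d at base 194, Hist1h4f and Hist2h4. Whether the other H4 probes also bind transcripts of further H4 genes was not tested, so the values cannot be read as those of 6 separate genes.

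By the place of the probe, the 15 near-copy probes were all below air at both times (medians -0.32 and -0.41) with none called. The 19 others within the first 1000 bases of a transcript had medians of -0.20 and -0.39 and included 2 calls at 6 h and 3 at 24 h. The 8 probes from base 1000 onward, a boundary chosen after the values were seen, had medians of 0.13 and -0.10 and included 1 call at 6 h, that of Hist2h2bb, and 0 at 24 h. They hold all 5 probes that were above background on fewer than 16 arrays, whose own 6 h median was 0.50. The other 3, of Hist1h1c, Hist2h2bb and Hist2h2be, gave -0.08, -0.53 and 0.02. Among the 8 was the probe that went most against the members' direction at 6 h: Hist2h2aa1 at base 1283 gave 1.09 ± 0.52 at 6 h (adjusted p = 0.251). Ozone replicate 3 of 6 h was at -4.57 beside -7.28, -7.27 and -7.23 in the other ozone lungs, and the probe was well above background on 1 of the 4 ozone and 0 of the 4 air arrays of 6 h. Without replicate 3 the value was 0.42. The next was Hist1h2bp at base 510, which gave 0.74 ± 0.27 at 6 h (adjusted p = 0.138), with -4.82, -5.25, -4.96 and -4.38 in air and -4.65, -4.46, -3.22 and -4.12 in ozone. Replicate 3 was again the highest lung. The place in the transcript is unsure for the Hist2h2aa1 probes at bases 1283 and 1673. The array design puts them, from chr3:96044598 and chr3:96044988 on the plus strand, before that gene's base 41 probe at chr3:96049502.

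The other 3 probes were too dim to be tested. Hist1h2ac at base 2193 was above background on 1 of 16 arrays, and Hist1h2be at base 2038 and the Hist4h4 probe at base 1784 on none. These probes give no level.

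The promoters of the clusters share a few short elements, and 30 of the 36 genes had a promoter in RefSeq's table (GRCm38.p6), taken from 250 bases before to 50 after the gene's start. Letters of 3 elements were searched on both strands, none of which is contained in another: TATAAA of the TATA box, CCAAT, bound by the factor NF-Y, and ATTTGCAT, the octamer bound by Pou2f1. TATAAA was in 20 of 30 (66.7%, against 13.6% of all 32851 promoters), CCAAT in 27 of 30 (90.0%, against 37.4%) and the octamer in 10 of 30 (33.3%, against 1.74%). The octamer was found in 6 of 10 H2A and 4 of 7 H2B promoters and in 0 of the 13 others. CCAAT was in 2 of 5 H4 promoters and in all 25 others.

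The 120 bases before the start are shown for 4 genes with a called probe and for an H4 gene. Letters of these elements on either strand are in capitals. The H4 gene, Hist1h4d, is 1 of the 2 of 5 H4 genes with CCAAT. The window of Hist1h2ae, also called, is not shown.
Hist1h1e: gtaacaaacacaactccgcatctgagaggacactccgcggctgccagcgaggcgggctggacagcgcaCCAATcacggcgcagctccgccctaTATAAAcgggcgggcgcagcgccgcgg
Hist1h1b: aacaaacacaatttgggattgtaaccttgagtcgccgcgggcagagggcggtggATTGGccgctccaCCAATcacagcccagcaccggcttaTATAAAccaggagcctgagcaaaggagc
Hist3h2a: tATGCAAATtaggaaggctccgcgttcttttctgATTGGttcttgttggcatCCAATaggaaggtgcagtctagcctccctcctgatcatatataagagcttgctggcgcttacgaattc
Hist2h2bb: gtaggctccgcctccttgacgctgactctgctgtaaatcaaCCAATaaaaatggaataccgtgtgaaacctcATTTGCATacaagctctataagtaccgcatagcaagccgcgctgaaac
Hist1h4d: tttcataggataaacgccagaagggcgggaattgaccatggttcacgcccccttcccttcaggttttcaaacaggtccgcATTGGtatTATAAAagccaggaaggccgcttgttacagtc
On GRCm38.p6 they lie at chr13:23622559-23622678 (minus strand), chr13:21780626-21780745 (minus), chr11:58954565-58954684 (plus), chr3:96269580-96269699 (plus) and chr13:23581448-23581567 (plus). The H1 promoters have a CCAAT shortly before TATAAA, Hist3h2a and Hist2h2bb an octamer and a CCAAT, and Hist1h4d a CCAAT on the other strand beside TATAAA. The windows of Hist1h2aa and Hist1h2ba overlap by 220 bases, on opposite strands. A match shows only that these letters are present.

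**Figure D3:**
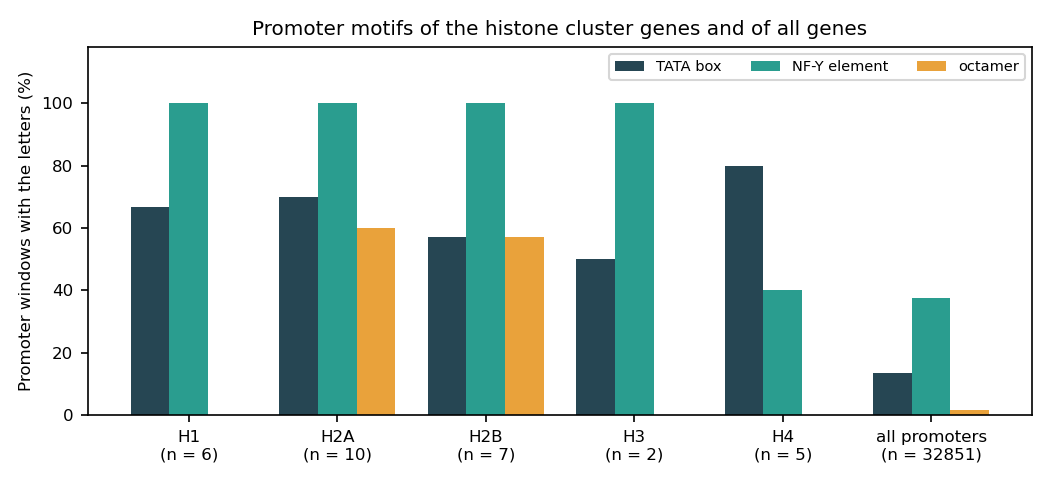
Share (%) of promoter windows of 300 bases that hold the letters of the TATA box, of the NF-Y element or of the octamer on either strand, for the histone cluster genes by type and for all promoters of the table; n is the number of windows. The octamer appears in 6 of 10 H2A and 4 of 7 H2B windows and in 0 of those of the other types, against 1.74% of all promoters.

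Genes that supply cells with histones were read from lists of other genes. Over all 32340 tested probes, the reference for each list, limma called 849 (2.63%) lower and 340 higher at 6 h. At 24 h it called 363 (1.12%) lower and 142 higher. For histone gene transcription, 0 of 16 probes of 8 genes rose and 5 fell at 6 h, and 2 fell at 24 h. The 5 were of the cyclin E genes, which activate the histone transcription factor Npat through Cdk2, and of Casp8ap2, a component of histone locus bodies: Ccne2 fell by 1.17 ± 0.20 and 1.06 ± 0.21 (2 probes, adjusted p = 0.00639 and 0.014), Ccne1 by 0.63 ± 0.11 and 0.48 ± 0.12 (adjusted p = 0.00631 and 0.0354) and Casp8ap2 by 0.35 ± 0.09 (adjusted p = 0.034). Npat itself gave -0.04 ± 0.13 and 0.19 ± 0.29 at its 2 probes at 6 h (adjusted p = 0.882 and 0.729) and -0.27 ± 0.13 and -0.68 ± 0.29 at 24 h (adjusted p = 0.428 and 0.337). At 24 h both Ccne1 probes fell, by 0.70 ± 0.11 and 0.62 ± 0.12 (adjusted p = 0.00219 and 0.0108).

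Of 26 probes for processing and decay of histone mRNA, 1 rose and 3 fell at 6 h, and 1 fell at 24 h (all probes called lower: 2.63% and 1.12%). Slbp, which binds the stem-loop, had means of 2.93 ± 0.15 (SD, n = 4) in air and 2.58 ± 0.10 in ozone and fell by 0.35 ± 0.09 at 6 h (SE, adjusted p = 0.038). That call held in 7 of 16 fits without 1 array, and ozone replicate 4, at 2.425, was far below the other ozone lungs. At 24 h Slbp gave -0.17 ± 0.09 (adjusted p = 0.506). Eri1, an exonuclease that trims and degrades the histone mRNA end, fell at 2 of its 3 probes, by 0.42 ± 0.09 and 0.40 ± 0.09 at 6 h (adjusted p = 0.0177 and 0.0222), and by 0.40 ± 0.09 at the first of these probes at 24 h (adjusted p = 0.0247). Sympk, a scaffold of the cleavage complex, rose by 0.31 ± 0.08 at 6 h (adjusted p = 0.0371).

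Among 42 probes of histone chaperones, 0 rose and 5 fell at 6 h, and 4 fell at 24 h (all probes called lower: 2.63% and 1.12%). Those with the smallest p at 6 h were Hat1, which acetylates new H4, at -0.65 ± 0.11 (adjusted p = 0.00526), Mms22l, which acts at stalled forks, at -0.71 ± 0.15 (adjusted p = 0.0183), Nasp, a carrier of H3 and H4, at -0.59 ± 0.13 (adjusted p = 0.0238), and Chaf1b, a subunit of the complex that deposits histones on copied DNA, at -0.60 ± 0.15 (adjusted p = 0.0334). At 24 h they were Hjurp, the chaperone of the centromeric H3, at -0.48 ± 0.07 at 1 of its 5 probes (adjusted p = 0.00174), and Asf1b at -0.73 ± 0.13 (adjusted p = 0.00423). The next were the second Mms22l probe at -0.74 ± 0.13 (adjusted p = 0.00691) and Chaf1a at -0.53 ± 0.10 (adjusted p = 0.00833). Each Mms22l probe was called at only 1 time. The second gave -0.40 ± 0.13 at 6 h (adjusted p = 0.105), and the first -0.56 ± 0.15 at 24 h (adjusted p = 0.0798).

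Histones made outside the replication clusters gave few calls, beside 2.63% of all probes called lower at 6 h and 1.12% at 24 h. Of 21 probes of 11 genes, 1 rose (H2afj) and 1 fell at 6 h, a probe of H3f3b, which encodes the replacement histone H3.3, by 0.49 ± 0.09 (adjusted p = 0.0117). The other 2 H3f3b probes gave -0.19 and -0.25 (adjusted p = 0.261 and 0.205). At 24 h 2 fell: H2afx, the H2A that marks DNA breaks when phosphorylated, by 0.78 ± 0.12 (adjusted p = 0.00195), and Cenpa, the centromeric H3, by 0.93 ± 0.16 (adjusted p = 0.00509).

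Genes that mark S phase and mitosis were read beside the histone medians of -0.24 and -0.37. Of all probes, 2.63% were called lower at 6 h and 1.12% at 24 h. Of 19 probes of 13 S phase genes, 18 fell at 6 h (median -0.75) and 11 at 24 h (median -0.51). Pcna, the sliding clamp of the replication polymerases, fell by 0.80 ± 0.09 at 6 h and by 0.38 ± 0.09 at 24 h (adjusted p = 0.000529 and 0.045). Of 21 probes of 12 mitosis genes, 3 fell at 6 h (median -0.29) and 16 at 24 h (median -0.97), among them Top2a, which untangles chromosomes, by 0.49 ± 0.13 and 1.13 ± 0.13 (adjusted p = 0.0398, called in 9 of 16 fits without 1 array, and 0.000225) and Cdk1 by 0.65 ± 0.11 and 0.97 ± 0.11 (adjusted p = 0.0042 and 0.000188). The difference between the histone probes and these lists was not tested. Within slides, the 24 h medians of S phase were -0.25 in the first and -0.72 in the other, and those of mitosis -0.74 and -1.13, beside -0.06 and -0.62 for the histone probes.

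**Figure D4:**
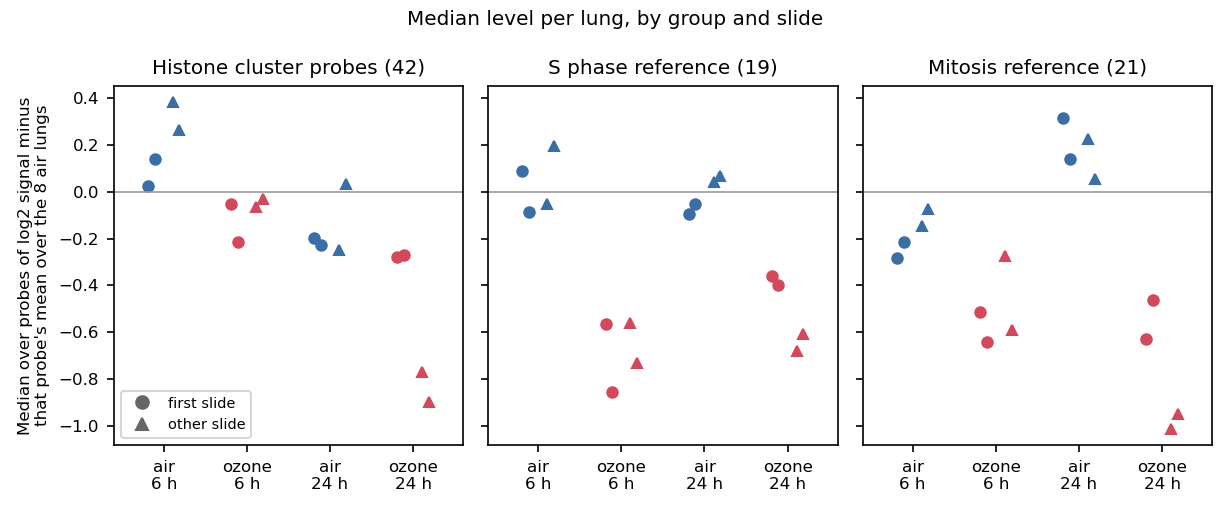
Median per lung of log2 signal minus each probe's mean over the 8 air lungs (vertical axis) for the 42 histone cluster probes, 19 S phase probes and 21 mitosis probes; circles are the first slide of a time (replicates 1 and 2) and triangles the other. Ozone lungs 3 and 4 of 24 h have the lowest histone medians, -0.77 and -0.90, while ozone lungs 1 and 2 of that time, at -0.28 and -0.27, lie just below their slide mates in air at -0.20 and -0.23.

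Per lung, the median of the 42 probes relative to the air mean was between 0.02 and 0.38 in air and between -0.22 and -0.03 in ozone at 6 h. The groups did not overlap. At 24 h it ran from -0.25 to 0.03 in air and from -0.90 to -0.27 in ozone. The air lungs themselves were lower at 24 h than at 6 h for Hist1h2aa, at 7.09 ± 0.13 against 7.77 ± 0.14 (SD, n = 4), but time and slide cannot be told apart in this design.

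Markers of other cell types moved with the 24 h group for 1 list in the same direction as the histones. Limma called 849 of all 32340 tested probes lower and 340 higher at 6 h, and 363 lower and 142 higher at 24 h. Of 9 tested probes of 7 erythroid precursor genes, 0 were called at 6 h (median 0.18) and 2 fell at 24 h (median -0.76): Klf1, an erythroid transcription factor, by 0.99 ± 0.23 (adjusted p = 0.0337) and Hemgn by 1.102 ± 0.26 (adjusted p = 0.0427) at 1 of its 2 probes. These calls held in 10 and 4 of 16 fits without 1 array. The list was mixed: Alas2 and Epor gave 0.42 ± 0.31 and 0.19 ± 0.10 at 24 h (adjusted p = 0.69 and 0.47). The mean level of the list ran from -2.54 to -1.63 in the air lungs and from -3.09 to -2.37 in the ozone lungs of 24 h, all 9 probes were above background on every array, and the part of these cells in the histone values was not tested. In the other direction, 2 of 7 thymocyte probes, Cd8b1 and Lck, and 2 of 10 B cell precursor probes, Vpreb3 (1 of its 2 probes) and Cd79b, rose at 24 h. Lck was called in 2 of 16 fits without 1 array. The medians of these lists at 24 h were 0.21 and 0.15, and the lowest members, Cd3e and Pax5, gave -0.33 ± 0.25 and -0.56 ± 0.68 (adjusted p = 0.714 and 0.864). Of 15 lung marker probes 1, of Eln, rose at 6 h, and of 7 squamous probes 1, of Dmkn, fell at 6 h, a call that held in 4 of 16 fits without 1 array. The median of the squamous list was 1.12, and its mean levels overlapped, from -3.13 to -1.02 in air and from -2.14 to -1.09 in ozone. The part of any of these cells in the histone values was not tested.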

How the data were processed

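Total RNA of 16 lungs was copied from an oligo(dT) primer, marked with Cy3 per the labels' protocols, and hybridised to 1-colour arrays. The deposited scanner files hold spot intensity on a linear scale from Agilent Feature Extraction 10.7.1.1, per the file headers, with background subtracted, along with other values such as deposited flags for uneven spots and spots well above background. A second table, of log2 values that the authors deposited, served as an alternative. Mouse build mm9 is that of the probe positions.

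Spots of a probe were averaged, and log2 of the processed signal minus the array's 75th percentile was used. A probe was tested (32340 were) if it had no uneven spot and stood well above background on 4 or more of the 16 arrays. Genes were not merged, since probes of near-copy genes share sequence. Linear models in limma 3.58.1 (R 4.3.3; eBayes used a trend), with 1 mean per group over 16 arrays, gave ozone minus air at each time and the difference between both effects. P-values are two-sided and adjusted over all 32340 probes by the Benjamini-Hochberg method, with calls under 0.05. The number of arrays limits the precision, with a median SE of 0.14. Each lung is a separate animal. The fit was tested on simulated data.

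The members, lists and naming rule were chosen with earlier results of these data known. The rule took the called probes, the probe of highest mean level per histone type, the 2 largest changes against the members' median, and up to 4 called probes per list of other genes. Other histone probes were named after their values were seen, to account for every type and family. Near copies were found by comparing probe sequences over 40 bases. Current names came from RefSeq's table through the accession for 36 of the 46 probes and a synonym for 10. Coding and untranslated parts were not annotated, since no annotation of mm9 was used here. A result on 1 gene of the lists of other genes is not reported here.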

Additional observations from a re-analysis of the deposited data

Results flagged for a closer look

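In each named probe and group of 4 lungs, the highest and the lowest lung were set against the others, and 11 lungs stood further from the rest than Dixon's critical value for a group of 4. Chance alone flags about 1 in 20 groups, or 10.8 of the 216 groups looked at, so the number found is the number chance gives, and the lungs below are listed as values. Among histone cluster probes, ozone replicate 1 of 6 h was low for Hist1h1e at base 661 (1.615, the other lungs from 1.768 to 1.796). Ozone replicate 3 of 6 h was high for Hist2h2aa1 at base 1283 (-4.567, the others from -7.278 to -7.233). Ozone replicate 2 of 24 h was high for Hist1h1b (-0.061, the others from -0.92 to -0.867). Air replicate 2 of 24 h was low for Hist1h2bc (-0.143, the others from 1.043 to 1.26).

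Among other genes at 6 h, ozone replicate 4 was low for Slbp (2.425) and Lck (-2.897), air replicate 4 was high for Ccne1 (-2.488) and air replicate 1 was high for Vpreb3 (0.558). At 24 h, air replicate 1 was high for Cdk1 (1.752) and low for Vpreb3 (-0.602), and ozone replicate 2 was high for Mms22l (-1.791). The effect of ozone on Vpreb3, a marker of B cell precursors, differed between the times, by 0.842 on the log2 scale (24 h minus 6 h, limma, called after adjustment over all probes).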

How the results depend on the processing

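Both medians over the histone probes kept their sign in all settings and in all 16 fits without 1 array, but few single calls were stable. Their distance from the median of all probes was not kept. With normexp the 24 h median was -0.32, beside -0.21 over all probes, against -0.37 and 0.00 in the main fit. The 6 h median ran from -0.302 to -0.182 over other settings (-0.307 to -0.2 without 1 array). The 24 h median was -0.055 in the first slides alone and -0.618 in the other slides alone (-0.463 to -0.272 without 1 array). At 6 h, 3 histone probes were called, against 7 with normexp background correction or array weights, 5 when scaled on the median of all probes kept (chosen after seeing the data), 1 with no filter on dim probes or with the mean of probes per gene name, and 0 in the first slides, with 6 h arrays alone or with sex as a covariate. Without 1 array it was 0 to 4, and 0 without ozone replicate 1 or 2 or air replicate 3 or 4 of 6 h. At 24 h, 3 were called, against 11 with quantile normalization, 10 with the authors' log2 table, 5 with slide as a block, 18 with array weights and 0 in the first slides. The 24 h count was 2 with sex as a covariate, with no filter on dim probes and with the 24 h arrays alone. Without 1 array it was 2 to 9, with 9 without ozone replicate 2, 6 without ozone replicate 1 and 5 without air replicate 3 of 24 h. The difference of effects had 2 calls with normexp or array weights, both higher with normexp, and 0 to 0 without 1 array. The causes were not tested.

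Same-numbered ozone and air lungs of a time deviated together weakly at most (correlations from -0.03 to 0.14), which cannot settle whether they were paired, for instance by litter. With the replicate number as a block, 0 histone probes were called at 6 h and 2 at 24 h, and the lists of other genes had 19 calls at 6 h and 29 at 24 h. Without the block these lists had 39 and 42. Other settings gave 25 (mean of probes), 10 (6 h arrays alone), 0 (first slides) and 6 (other slides) at 6 h, and 0 (first slides), 16 (other slides) and 78 (array weights) at 24 h. Without 1 array they had 16 to 44 and 29 to 48.

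The sign turned at 24 h for Hist3h2a at base 767 (-0.047 with the mean of probes, -0.056 in the other slide), Hist1h2bc (-0.364 in the other slide, and -0.27 to 0.198 without 1 array, the lowest without air replicate 2) and Hist2h3c1 (-0.004 with quantile normalization, -0.079 in the other slide), and at 6 h for H2afj (-0.013 with the mean of probes). The median of all probes was 0.17 at 6 h and -0.21 at 24 h with normexp and 0.15 at 6 h with no filter. Dim probes, above background on fewer than 16 arrays, limit what can be read of 5 histone probes.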
